A study of Temnothorax americanus and Temnothorax ambiguus and Temnothorax curvispinosus with 48 samples.

Results

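Solute carriers and ATP-binding cassette (ABC) transporters were examined in the whole-body transcriptomes of slavemaking ants and their hosts (genus Temnothorax). A contig, an assembled transcript sequence, was counted as a transporter when the title of its best protein match held "solute carrier", "ATP-binding cassette", "cotransporter" or "transporter" and did not hold "trehalose". The files name proteins for 2140 of 339894 contigs, and 67 of the 2140 met this rule. T. americanus held 21 such contigs among 477 named ones, T. duloticus held 12 among 406, T. pilagens 32 among 901 and T. ambiguus 2 among 236. None was found among the 79 named contigs of T. longispinosus or the 41 of T. curvispinosus. The 67 contigs carried 36 protein names from 43 protein records, so that several contigs can be parts or copies of 1 gene and can share reads.

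Solute carriers move sugars, amino acids, ions, vitamins and organic acids across membranes, either down a gradient or coupled to the flow of sodium, protons or chloride. ABC transporters use ATP to move lipids, sterols, pigments and foreign compounds. In insects both groups are prominent in the gut, in the Malpighian tubules (the excretory organs), in fat body and at the synapses and barriers of the nervous system.

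Each library was made from 6 whole workers pooled over 3 colonies (2 workers per colony), and 4 such libraries were sequenced for each state of 3 slavemakers (T. americanus, T. duloticus, T. pilagens) and 3 hosts (T. longispinosus, T. curvispinosus, T. ambiguus). Libraries of the raiding phenotype (DR, during raid) held slavemaker workers taken while fighting at the host nest, or host workers taken while defending it. Libraries of the non-raiding phenotype (BR, before raid) held slavemaker workers sampled in autumn after the raiding season, or host foragers sampled before contact with slavemakers. Slavemaker workers of both states were selected as infertile by dissection, and per the study's methods the pools of both states drew on the same colonies. The labels do not say which pools share colonies, so the states were compared without pairing. In slavemakers the state thus cannot be told apart from the season, and in hosts not from the task (foraging or fighting). Colonies were wild-caught and kept in the laboratory, slavemakers were allowed to raid only the preferred host of their community, and no drug or genetic treatment is described for any group. In whole bodies, fewer cells of a type and less RNA per cell cannot be told apart.

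The groups follow the sample labels, but the files hold features that bear on them. Some contigs are named for the library they were assembled from, with a short letter tag. In the hosts the tags end in br or dr and match the labelled state in all 11 libraries that lend their name. In slavemakers the tag is smadr in 8 libraries, all labelled BR, and smifors in 4, all labelled DR, so that the slavemaker tag ending in dr stands on libraries labelled BR. No source used here explains these slavemaker tags, and the expression table of T. duloticus heads the 4 libraries labelled DR with the letters BR. If the slavemaker labels were exchanged, the sign of each slavemaker fold change below would turn. Of the 48 libraries, 6 were removed by the study, among them DR_439 of T. americanus and DR_687 of T. pilagens. The 42 kept libraries held 5.94 to 49.1-million counts, and the 67 transporter contigs had between 15 and 14747 counts in every library of their species.

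Values are counts per 1000000 counts of the library (CPM), listed in order of library number, and a value in square brackets is that of the removed raiding library, DR_439 in T. americanus or DR_687 in T. pilagens. Fold changes are log2 values of raiding over non-raiding from edgeR with their standard error (SE), from 4 kept libraries in each state, or 3 of the raiding state in T. americanus and T. pilagens. The files give protein names to called contigs only, so that the members were chosen by the fold change and p-value that the study obtained in this same contrast of the same libraries. Directions and sizes of change are therefore a description and were not tested here. Contig lengths are not in the files, and CPM of different contigs are not compared.

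In the slavemakers, 62 of the 65 transporter contigs had lower values in the raiding phenotype and 3 had higher values. Of the other named contigs that could be fitted in the same species, 1112 of 1601 (69.5%) were lower. The 3 exceptions were a GABA transporter 3 contig in T. americanus and the contigs of zinc transporter foi and Solute carrier family 35 member F3 in T. pilagens. In T. ambiguus both contigs were lower in defending workers, where 96 of 201 other named contigs (47.8%) were lower. The median log2 fold change of the transporter contigs was -1.33 for T. americanus, -0.96 for T. duloticus, -0.87 for T. pilagens and -1.60 for T. ambiguus. Over all contigs tested it lay between -0.01 and 0.02 in these 4 species.

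**Figure D1:**
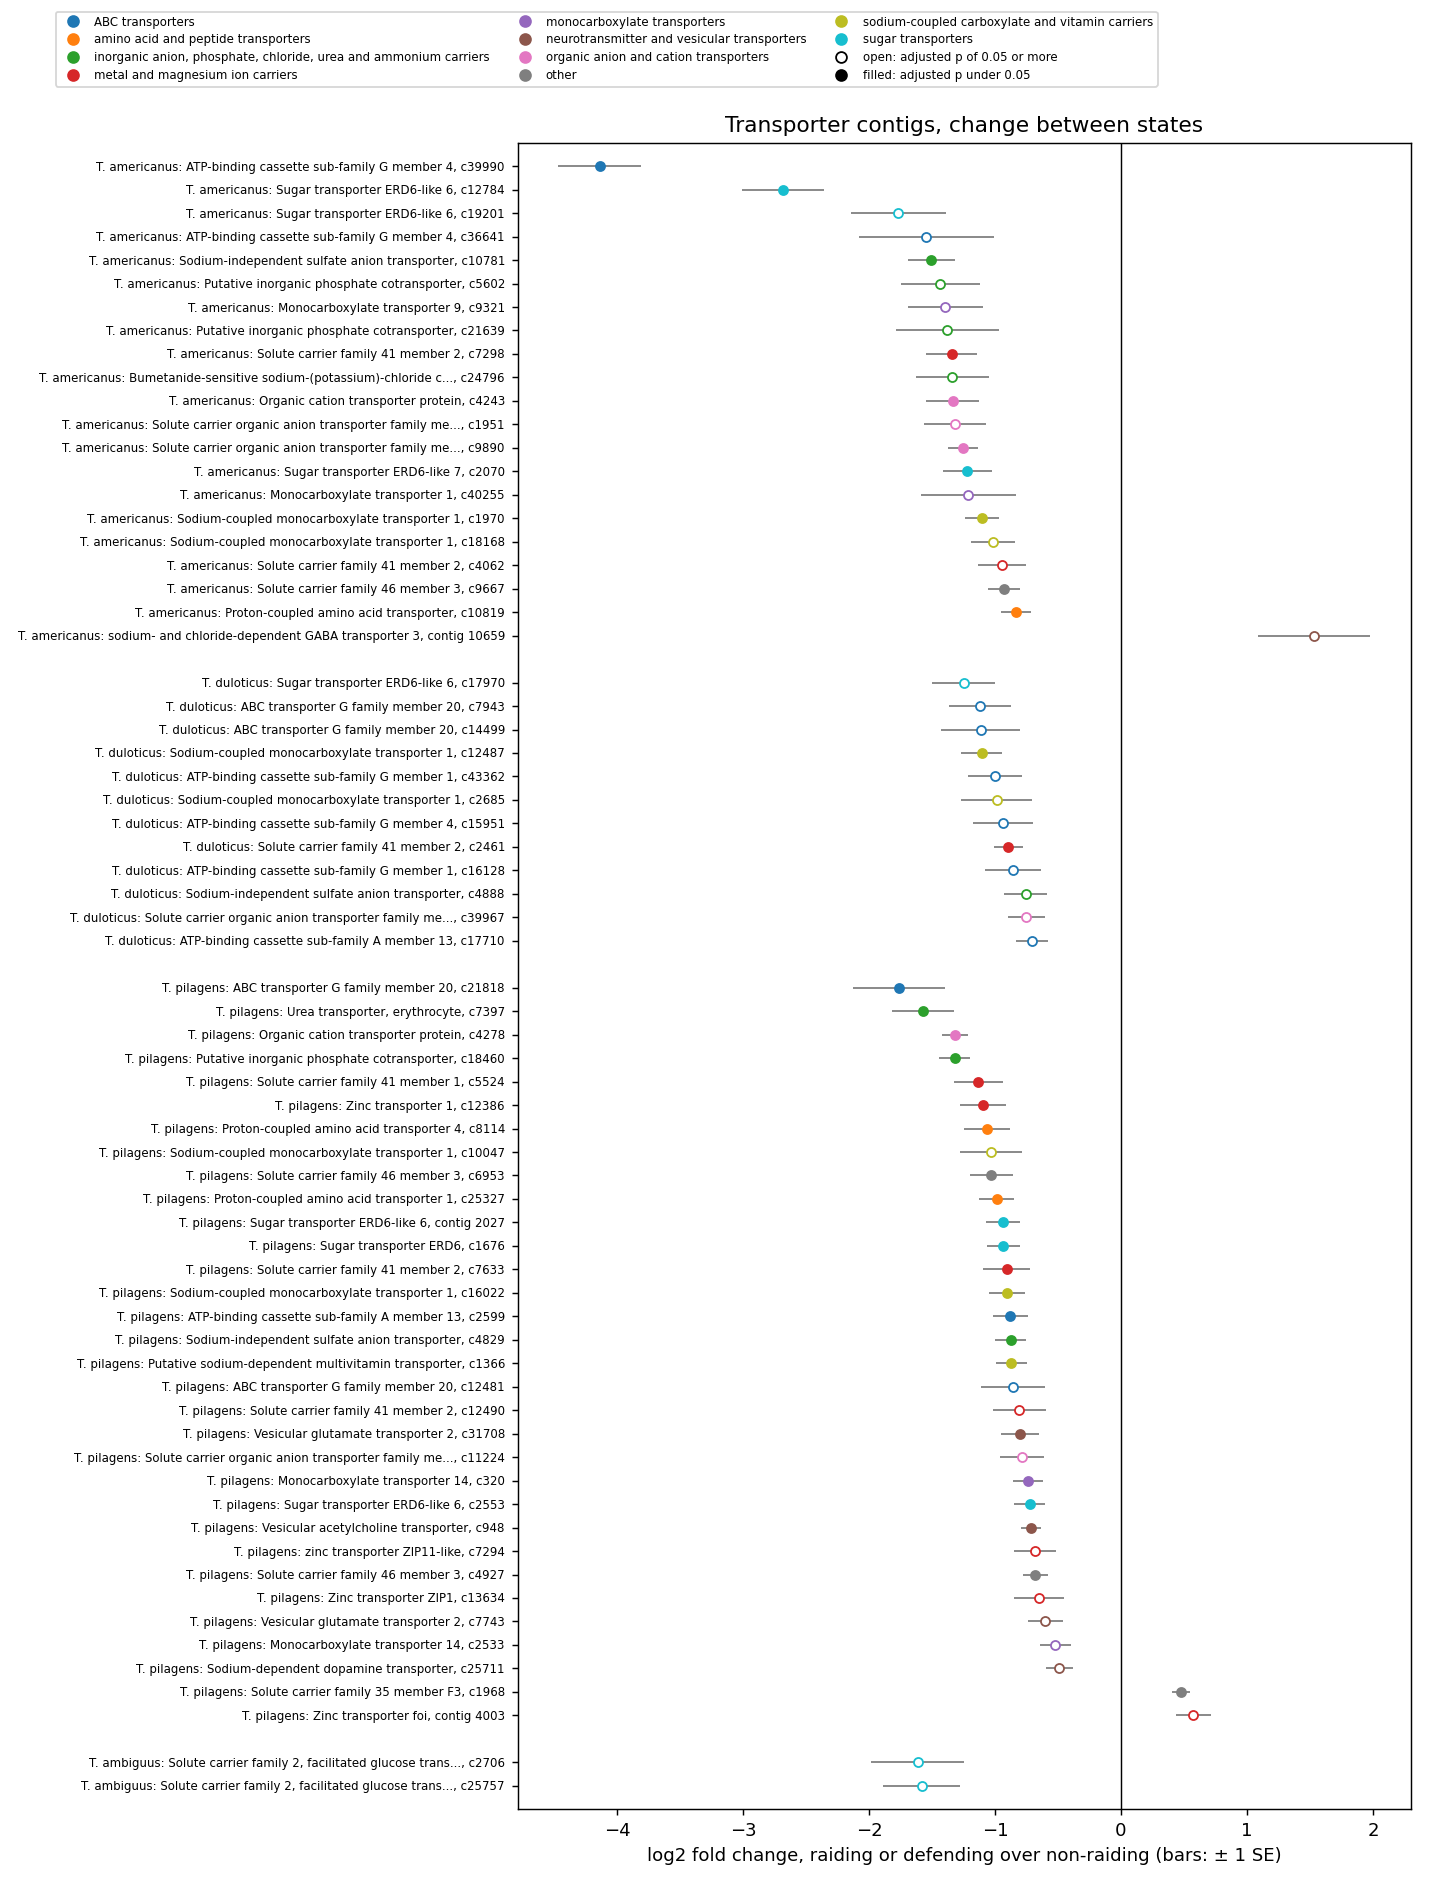
Log2 fold change of raiding or defending over non-raiding workers for all 67 transporter contigs, 1 row per contig, with bars of 1 SE either side and colours for the kind of transporter. In the slavemakers 62 of 65 contigs lie left of 0, and filled points mark the contigs called at an adjusted p under 0.05 by edgeR's quasi-likelihood test (33 lower and 1 higher), whose contrast also chose the contigs.

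Counted by edgeR's quasi-likelihood test with Benjamini-Hochberg adjustment at 0.05, 10 of the 21 contigs of T. americanus were called lower and 0 higher, beside 0.384% lower and 0.421% higher of all 40389 contigs tested. In T. duloticus 2 of 12 were called lower and 0 higher, beside 0.284% and 0.0793% of 41591. In T. pilagens 21 of 32 were called lower and 1 higher, beside 1.94% and 0.94% of 38402. In T. ambiguus 0 of 2 were called by this test, beside 0.0% of 33331 contigs in either direction. Both had an unadjusted p under 0.05 (4.12% of all contigs were lower at this level), and both were called by edgeR's likelihood ratio test without a filter (0.796%) and by DESeq2 (1.72%). In the slavemakers that test called 18 contigs of T. americanus (2.08% of all contigs), 10 of T. duloticus (1.57%) and 29 of T. pilagens (3.96%), and DESeq2 called 20 (5.47%), 12 (6.33%) and 32 (7.33%). With all 8 libraries the quasi-likelihood test called 17 in T. americanus (2.37%) and 25 in T. pilagens (4.9%). The CPM of the states did not overlap for all 20 lower contigs and the higher one in T. americanus (6.76% and 6.58% of all contigs tested), 9 of 12 in T. duloticus (4.54%), all 30 lower and 2 higher in T. pilagens (7.69% and 9.78%), and both in T. ambiguus (2.58%). Since the contrast chose the members, nothing is read from these counts. The counts of calls depended on single libraries. In T. americanus between 1 and 7 contigs were called when 1 library was left out (1 without DR_438, 2 without DR_440, 3 without DR_437, 5 without BR_433, 6 without BR_434 or BR_436), in T. duloticus between 0 and 3 (0 without BR_419, BR_420, DR_421 or DR_423, 1 without BR_417), and between 4 and 19 (4 without DR_684, 9 without BR_682 or DR_685, 10 without BR_681, 14 without DR_686) in T. pilagens. The sign of the fold change of each of the 67 contigs was the same in every such fit. This contrast chose the contigs, so nothing is read from that.

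Libraries DR_439 and DR_687 were removed by the study, so their values took no part in the calls that chose the members, as far as the methods state. In DR_439, 20 of the 21 T. americanus contigs lay nearer to the mean of the kept raiding libraries in log2 CPM than to that of the non-raiding libraries, beside 94.2% of the other named contigs and 63.5% of all contigs tested. All 20 contigs that were lower in the kept raiding libraries were below every non-raiding library in DR_439 too. Of the other named contigs of either direction 59.0% were below every non-raiding library there, and of all contigs tested 16.4%. Counted only over contigs lower in the kept raiding libraries, 100% of the transporter contigs were below the non-raiding mean in DR_439. This share was 99.3% for the other named contigs and 67.7% for all contigs tested. In DR_687, 29 of the 32 T. pilagens contigs lay nearer to the raiding mean (87.8% of other named and 56.8% of all contigs). Of the 30 lower ones, 28 were below all 4 non-raiding libraries, beside 62.9% of other named and 26.8% of all contigs of either direction. Counted only over lower contigs, the shares below the non-raiding mean in DR_687 were 100% for transporter, 97.9% for other named and 68.9% for all contigs. The contigs that lay nearer to the non-raiding mean were a Solute carrier organic anion transporter family member 4C1 contig in DR_439, and contigs of ABC transporter G family member 20, vesicular acetylcholine transporter and vesicular glutamate transporter 2 in DR_687. A single library per species allows no test, and the share of transporter contigs nearer to their own state was close to that of the other named contigs.

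By library, the median log2 ratio of the transporter contigs to the mean of the non-raiding libraries was -1.18, -1.11 and -1.40 in the kept raiding libraries of T. americanus and -1.26 in DR_439. In DR_421 to DR_424 of T. duloticus it was -1.05, -0.77, -0.98 and -0.70. For T. pilagens it was -0.97, -0.80 and -0.75 in the kept raiding libraries and -0.87 in DR_687. The medians of non-raiding slavemaker libraries lay between -0.18 and 0.18. The kept libraries are those whose contrast chose the members, so their separation is a description. The median coefficient of variation over the transporter contigs in BR and DR libraries was 20.3% and 20.02% in T. americanus, beside 37.8% and 29.3% over all contigs tested. In T. duloticus it was 17.2% and 21.6%, beside 30.1% and 33.8%. It was 12.9% in both states of T. pilagens, beside 32.9% and 28.8%. For the 2 contigs of T. ambiguus it was 39.1% and 35.8%, beside 30.6% and 32.7%. Single transporter contigs reached 66.7% (DR of T. americanus). The p-value that chose the members can favour contigs with a small spread, so nothing is read from these differences.

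**Figure D2:**
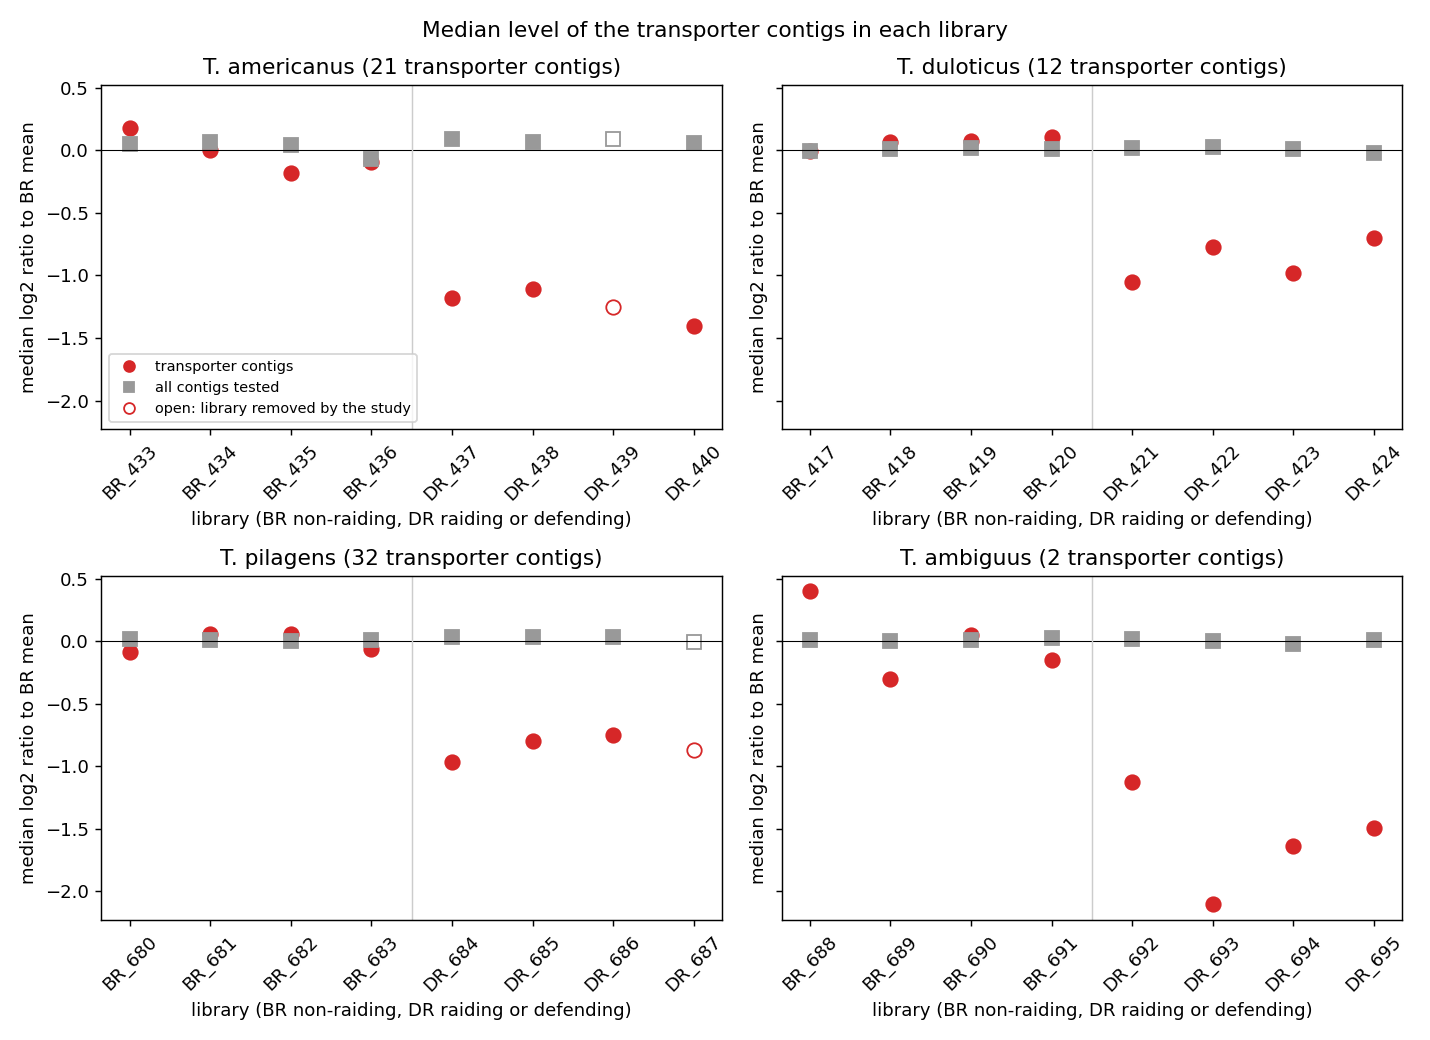
Median log2 ratio to the mean of the non-raiding libraries for the transporter contigs (circles) and all contigs tested (squares), in each of 8 libraries of 4 species. The circles of the raiding libraries lie between -0.70 and -1.40 in slavemakers, the 2 removed libraries (open symbols) among them, while all squares lie near 0.

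The classes of transporters follow, with the number of contigs called by the quasi-likelihood test in parentheses. Those numbers stand beside the percentages of all contigs given above and beside 552 of 1601 other named contigs called lower and 252 called higher in the slavemakers, and nothing is read from them.

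Of the 11 slavemaker contigs titled as ABC transporters, 11 were lower in the raiding phenotype (3 called), with a median log2 fold change of -0.997. The largest change of all members was that of ATP-binding cassette sub-family G member 4 (ABCG4), which in mammals exports sterols from cells, in T. americanus. Contig c39990 of ABCG4 had 54.7, 69.3, 49.4 and 66 CPM in non-raiding libraries and 4.16, 4.06, [4.09] and 1.71 CPM in raiding libraries. All raiding libraries lay far below the lowest non-raiding one. The means were 59.9 ± 9.34 (SD, n = 4) and 3.31 ± 1.38 (SD, n = 3) CPM, a log2 fold change of -4.14 ± 0.33 (SE). A second contig matched to the same record, c36641, had 40.00, 39.5, 26.4 and 42.8 CPM in non-raiding and 16.4, 18, [6.91] and 2.91 CPM in raiding libraries, a log2 fold change of -1.54 ± 0.53 (SE). It was lower in each raiding library as well, but DR_440, in which c39990 was lowest too, stood far below DR_437 and DR_438. In T. duloticus ABCG4 contig c15951, matched to another record, had 30.4, 13.5, 29.5 and 25.8 CPM against 13.1, 14.3, 13.8 and 11.3 CPM, a log2 fold change of -0.94 ± 0.24 (SE). Here the states overlapped, because the non-raiding library BR_418 lay at the level of the raiding ones.

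ABC transporter G family member 20 was found in T. duloticus and T. pilagens, in 2 contigs each matched to 1 record. The T. duloticus contig c7943 had 37.2, 46.7, 37.3 and 48.7 CPM in non-raiding and 13.9, 14.4, 21.3 and 29.4 CPM in raiding libraries, a log2 fold change of -1.12 ± 0.25 (SE). The T. pilagens contig c12481 had 27.6, 46, 21.4 and 28 against 15, 18, 19.5 and [10.6] CPM, a log2 fold change of -0.86 ± 0.25 (SE). The states did not overlap in either contig. The other T. pilagens contig, c21818, showed the largest change in that species, from 19.3, 10.7, 15.6 and 33.1 CPM to 6.56, 5.48, 5.94 and [11.8] CPM (-1.76 ± 0.36 SE). DR_687, at 11.8 CPM, lay above the non-raiding library BR_681, and with all 8 libraries the log2 fold change was -1.43 and no longer called.

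ATP-binding cassette sub-family A member 13 (ABCA13), of the subfamily known in mammals for lipid transport, was found in T. duloticus and T. pilagens. In T. duloticus contig c17710 had 318, 313, 300.2 and 339 CPM in non-raiding and 162, 249.9, 167 and 209.9 CPM in raiding libraries, a log2 fold change of -0.71 ± 0.13 (SE). Its T. pilagens contig, c2599, had 307, 393, 290.0 and 308 against 163, 208, 175 and [155] CPM, a log2 fold change of -0.88 ± 0.14 (SE). All raiding libraries were below all non-raiding ones in both species. The remaining contigs of this class in T. duloticus were c14499 of ABC transporter G family member 20 (-1.11) and the sub-family G member 1 contigs c16128 and c43362 (-0.86 and -0.997).

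**Figure D3:**
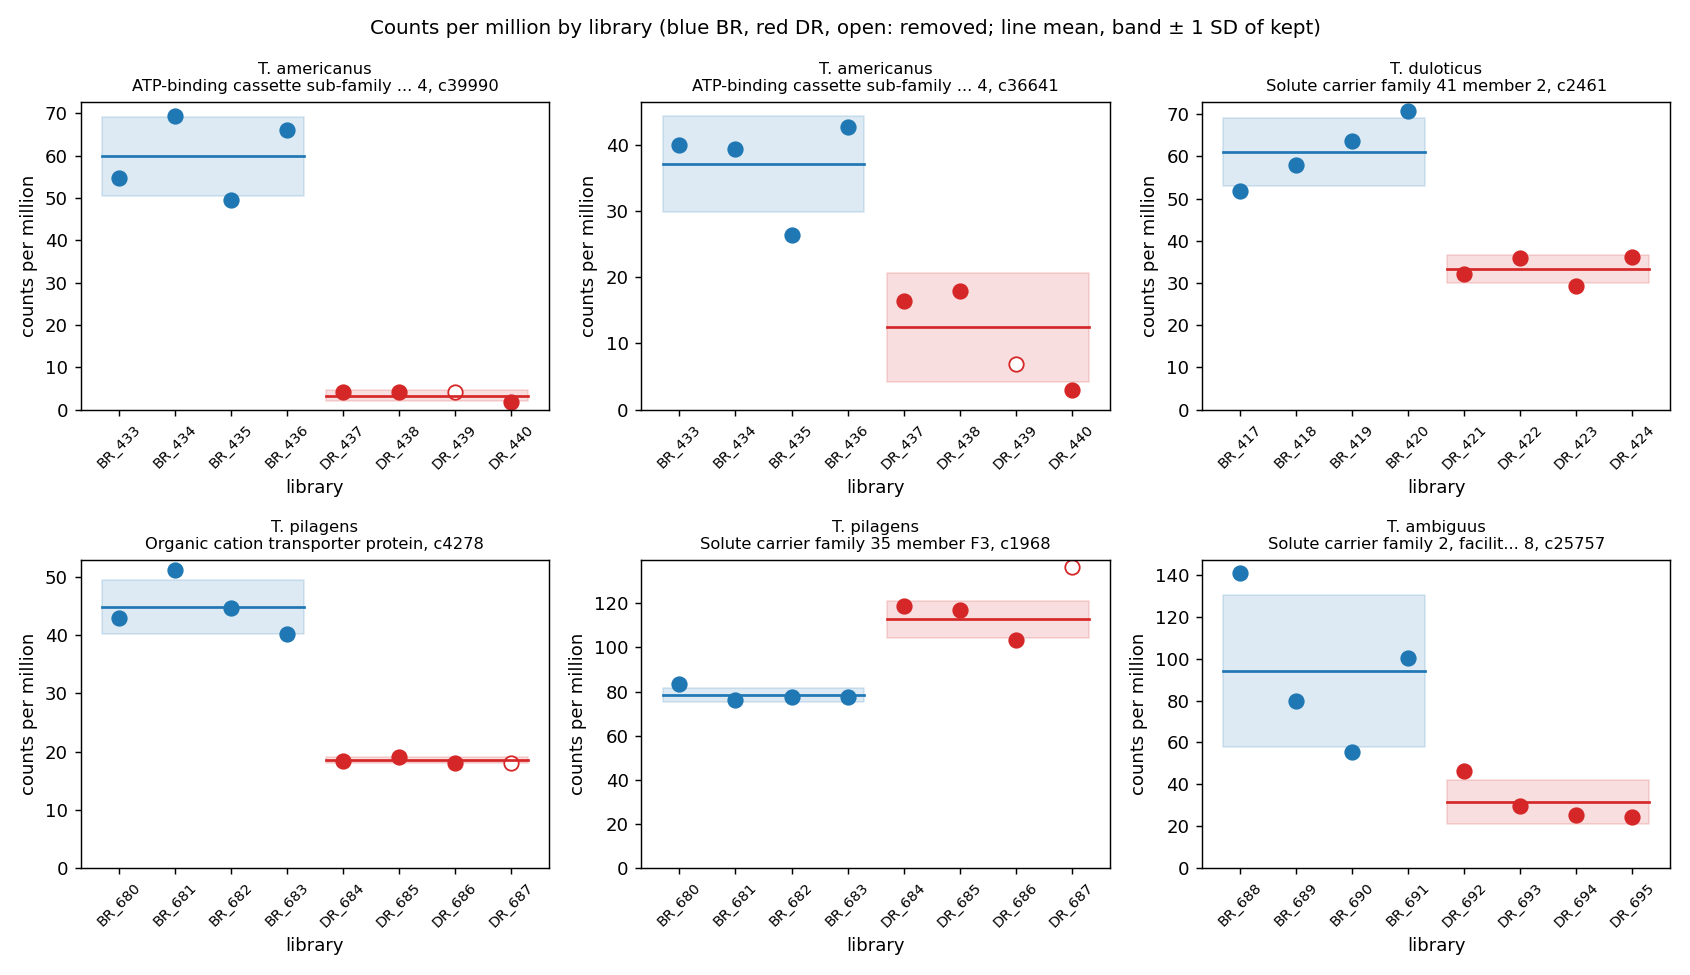
CPM of 6 transporter contigs in each of the 8 libraries of their species, with lines at the mean and bands of 1 SD either side over kept libraries; blue is non-raiding, red raiding or defending, and open points are removed libraries. ABCG4 contig c39990 averaged 59.9 CPM in non-raiding and 3.31 CPM in raiding libraries, while Solute carrier family 35 member F3 is higher in all raiding libraries.

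All 7 sugar transporter contigs in slavemakers were lower (5 called), with a median log2 fold change of -1.22. They carry names of the ERD6 type, after a plant sugar transporter. In T. americanus ERD6-like 6 was matched by contigs c12784 and c19201. Contig c12784 had 6.73, 5.07, 8.64 and 4.48 CPM in non-raiding and 0.941, 1.08, [0.9999] and 0.856 CPM in raiding libraries, a log2 fold change of -2.68 ± 0.33 (SE). Contig c19201 had 9.60, 9.35, 4.98 and 11.9 against 1.70, 3.73, [3.42] and 2.34 CPM (-1.77 ± 0.38 SE). The states did not overlap in either contig, and the values in DR_439 lay among those of the kept raiding libraries. In T. duloticus the contig matched to the same record, c17970, had 11.6, 26.7, 23.2 and 18.2 CPM against 6.59, 9.88, 9.19 and 8.36 CPM, a log2 fold change of -1.25 ± 0.25 (SE) and the largest of its members. BR_417 was the lowest non-raiding library and still above each raiding library.

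In T. pilagens ERD6-like 6 contig 2027, matched to a different record, had 211, 269, 301 and 275 CPM in non-raiding and 161, 142, 126 and [122] CPM in raiding libraries, a log2 fold change of -0.94 ± 0.13 (SE). The log2 fold change was -0.72 for a second contig of that record and -0.93 for an ERD6 contig. ERD6-like 7 was matched in T. americanus, where contig c2070 had 238, 194, 199 and 281 CPM against 95.7, 119.9, [93] and 72.4 CPM, a log2 fold change of -1.22 ± 0.19 (SE). In each case the lowest non-raiding library was above the highest raiding one.

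The only members in a host were also sugar transporters, both of solute carrier family 2, the facilitated glucose transporters. In T. ambiguus contig c25757 (member 8) had 141, 80.01, 55.5 and 100.5 CPM in foragers and 46.5, 29.7, 25.5 and 24.2 CPM in defending workers, a log2 fold change of -1.58 ± 0.30 (SE). Contig c2706, whose title gives no member number, had 39.7, 29, 58.9 and 25 against 15, 5.92, 12 and 17.1 CPM, a log2 fold change of -1.61 ± 0.37 (SE). In both, each defending library lay below each forager library, although forager libraries varied by a coefficient of variation of 38.5% to 39.8%.

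Organic anion and cation transporters take up a wide range of hormones, metabolites and foreign compounds. All 6 of their contigs in slavemakers were lower (3 called), with a median log2 fold change of -1.28. Organic cation transporter protein, matched to 1 record in both species, had 79.9, 94.5, 52.3 and 71.4 CPM in non-raiding and 28.7, 33.1, [28.7] and 25.8 CPM in raiding libraries of T. americanus (contig c4243). In T. pilagens (contig c4278) it had 43, 51.3, 44.7 and 40.3 against 18.3, 19.1, 18.1 and [18] CPM. The log2 fold changes were -1.33 ± 0.21 (SE) and -1.32 ± 0.10 (SE), and the removed libraries lay within or just below the range of the kept raiding ones.

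Solute carrier organic anion transporter family member 4C1 had 84.5, 79.2, 70.4 and 71.8 CPM against 34, 32.4, [51.9] and 28.8 CPM in T. americanus (contig c9890, -1.25 ± 0.12 SE). In DR_439 it was above the kept raiding libraries and below the non-raiding ones. The contig of T. pilagens, c11224, had 37.8, 31.6, 31.1 and 45.8 against 22.3, 18.1, 25.3 and [27] CPM (-0.79 ± 0.17 SE). Family member 1A5 had 119, 82.2, 65.6 and 95.9 CPM against 25, 39, [38] and 43.8 CPM in T. americanus (contig c1951, -1.32 ± 0.25 SE). Contig c39967 of T. duloticus had 129, 133, 115 and 133 against 66.1, 91.3, 58.3 and 91.3 CPM (-0.75 ± 0.15 SE). The states did not overlap in any of these 4 contigs.

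All 8 contigs of sulfate, phosphate, chloride and urea carriers in slavemakers were lower (4 called), with a median log2 fold change of -1.36, the lowest median of any class. The sodium-independent sulfate anion transporter was matched to 1 record in all 3 slavemakers. It had 42.6, 37.8, 30.2 and 33.8 CPM against 11.7, 15.3, [10.5] and 10.6 CPM in T. americanus (contig c10781, -1.51 ± 0.19 SE). In T. duloticus it had 31.8, 37.3, 25 and 36.2 against 18.1, 18, 16.7 and 25.2 CPM (contig c4888, -0.76 ± 0.17 SE). In T. pilagens it had 33, 34.3, 38.8 and 35.6 against 21.6, 16.2, 22 and [19.9] CPM (contig c4829, -0.87 ± 0.12 SE). The states were apart in T. americanus and T. pilagens and overlapped in T. duloticus, where raiding library DR_424 lay above the lowest non-raiding library, BR_419.

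A putative inorganic phosphate cotransporter was matched to 1 record in T. americanus and T. pilagens. Contig c5602 of T. americanus had 98.4, 49.2, 85 and 63.6 CPM against 35.5, 17, [24.1] and 28.5 CPM, a log2 fold change of -1.43 ± 0.31 (SE), and contig c21639 of the same record had a log2 fold change of -1.38. Contig c18460 of T. pilagens had 29.8, 29.1, 24.7 and 23.6 against 10.6, 11.4, 11.3 and [11.9] CPM, a log2 fold change of -1.32 ± 0.12 (SE). The T. pilagens libraries lay closely together within each state. A urea transporter in T. pilagens (contig c7397), a protein named for its role in vertebrate red blood cells, had 8.24, 9.92, 7.36 and 5.67 CPM against 2.29, 3.06, 2.76 and [2.92] CPM, a log2 fold change of -1.57 ± 0.25 (SE). The bumetanide-sensitive sodium-(potassium)-chloride cotransporter, which in animals loads cells with salt, had a log2 fold change of -1.34 in T. americanus (contig c24796).

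Of 10 contigs of magnesium and zinc carriers, 9 were lower (5 called) and 1 higher, with a median log2 fold change of -0.90. Solute carrier family 41 member 2, a magnesium transporter in mammals, was matched to 1 record in all 3 slavemakers, by 5 contigs. In T. americanus contig c4062 had 74.4, 52.8, 78.2 and 57.5 CPM against 31.3, 41.4, [35] and 28.5 CPM (-0.94 ± 0.19 SE). Contig c2461 of T. duloticus had 51.9, 58, 63.7 and 70.8 against 32.2, 36, 29.2 and 36.1 CPM (-0.89 ± 0.11 SE), the smallest SE of the members there. Contig c7633 of T. pilagens had 69.2, 93.2, 53.8 and 57.1 against 35.6, 39.2, 38 and [36.5] CPM (-0.91 ± 0.19 SE). The states did not overlap in any of them, and the other contigs of the record had log2 fold changes of -1.34 (c7298, T. americanus) and -0.81 (c12490, T. pilagens).

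The remaining carriers of this class were found in T. pilagens only. Family 41 member 1 (-1.13), zinc transporter 1, which exports zinc from mammalian cells (-1.10), ZIP11-like (-0.68) and the zinc importer ZIP1 (-0.65) were lower. Zinc transporter foi, a ZIP protein known in Drosophila for its part in gonad and tracheal development, was higher. Its contig 4003 had 62.5, 61.4, 70.3 and 72.1 CPM in non-raiding and 131, 85, 92.2 and [83.1] CPM in raiding libraries, a log2 fold change of 0.57 ± 0.14 (SE). Each raiding library was above each non-raiding one, and DR_684 stood highest. This contig is named for library DR_684.

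All 7 contigs of sodium-coupled carboxylate and vitamin carriers were lower (4 called), with a median log2 fold change of -1.01. Sodium-coupled monocarboxylate transporter 1 (SMCT1), which in mammals takes up lactate and short-chain fatty acids, was the most frequent name, with 6 contigs from 3 records in all 3 slavemakers. In T. americanus contig c1970 had 78.1, 57.9, 60.2 and 78.2 CPM against 28.5, 33.3, [42.9] and 32.6 CPM (-1.10 ± 0.14 SE). In T. duloticus contig c12487 had 30.02, 23, 32.7 and 35.1 against 13.6, 18.1, 12.8 and 12.6 CPM (-1.10 ± 0.16 SE), and c2685 had 48, 75.8, 50.4 and 28.5 against 25.7, 33.1, 27.1 and 17.9 CPM (-0.98 ± 0.28 SE). The states of c12487 did not overlap, but those of c2685 did, since BR_420 lay below DR_422. In T. pilagens contig c10047 had 19.8, 25, 20.2 and 20.1 against 11.4, 14.3, 6.49 and [8.77] CPM (-1.03 ± 0.25 SE), with BR_681 above the other non-raiding libraries. The other SMCT1 contigs had log2 fold changes of -1.01 (c18168, T. americanus) and -0.91 (c16022, T. pilagens). A putative sodium-dependent multivitamin transporter, named after the carrier of biotin and pantothenate, had a log2 fold change of -0.87 in T. pilagens.

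The 4 contigs of monocarboxylate transporters, a family named for carriers of lactate and pyruvate, were lower (1 called). Log2 fold changes were -1.39 (transporter 9) and -1.21 (transporter 1) in T. americanus and -0.74 and -0.52 (transporter 14) in T. pilagens. What these members carry in ants is not known from these data. The 3 contigs of proton-coupled amino acid transporters, which move small amino acids, were lower and called, at -0.83 in T. americanus and -1.06 and -0.99 (transporters 4 and 1) in T. pilagens.

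Of 5 contigs of neurotransmitter and vesicular transporters, 4 were lower (2 called) and 1 higher, with a median log2 fold change of -0.60. In T. pilagens the contigs of vesicular glutamate transporter 2 (-0.80 and -0.60) and vesicular acetylcholine transporter (-0.71), which fill synaptic vesicles, and of the sodium-dependent dopamine transporter (-0.49), which clears dopamine from the synapse, were lower. The vesicular acetylcholine transporter lay between 46.5 and 52.2 CPM in the kept raiding libraries and at 72.5 CPM in DR_687, just below the lowest non-raiding library. In T. americanus a contig matched to sodium- and chloride-dependent GABA transporter 3, a protein that removes the transmitter GABA from the synapse, was the only transporter contig of that species higher in raiding workers. It had 17.2, 33.7, 7.59 and 34 CPM in non-raiding and 72, 59.6, [67.9] and 64.3 CPM in raiding libraries, a log2 fold change of 1.53 ± 0.45 (SE). The non-raiding libraries varied widely among themselves, with BR_435 lowest and BR_434 and BR_436 highest, but none reached a raiding library. Its best match is a mammalian protein, whereas 66 of the 67 contigs matched insect proteins, 54 of them from the ant Acromyrmex echinatior, and it is named for library DR_440.

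Solute carrier family 46 member 3, a lysosomal protein in mammals, was lower in T. americanus and T. pilagens. In T. americanus contig c9667 had 46.6, 49.3, 52.5 and 66.3 CPM against 26.7, 27.1, [26.8] and 29.4 CPM (-0.93 ± 0.13 SE). Contig c4927 of T. pilagens had 41, 47.1, 45.5 and 44.9 against 25.6, 30.5, 30.1 and [28.9] CPM (-0.68 ± 0.10 SE), and contig c6953 had a log2 fold change of -1.03. The states did not overlap in any of these contigs. Solute carrier family 35 member F3, of a family best known for nucleotide sugar transport, was higher in raiding T. pilagens. Contig c1968 had 83.3, 76.2, 77.6 and 77.5 CPM against 119, 117, 103 and [137] CPM, a log2 fold change of 0.48 ± 0.07 (SE). It was the only member called higher, and the removed library lay above the kept ones.

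Between slavemakers, 12 protein records were matched by transporter contigs of at least 2 species, 3 of them in all 3 species. Every contig of these 12 records was lower in the raiding phenotype. Of the 217 other records shared between slavemakers, 132 (60.8%) were lower throughout, 52 were higher throughout and 33 were mixed. The species share no libraries, but in each of them only called contigs have names. Across the 3 species, SMCT1 (1 record) ranged only from -1.10 to -1.01, family 41 member 2 from -1.34 to -0.81 and the sulfate anion transporter from -1.51 to -0.76. The sulfate anion transporter had its lowest value in T. americanus, and differences between species were not tested.

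**Figure D4:**
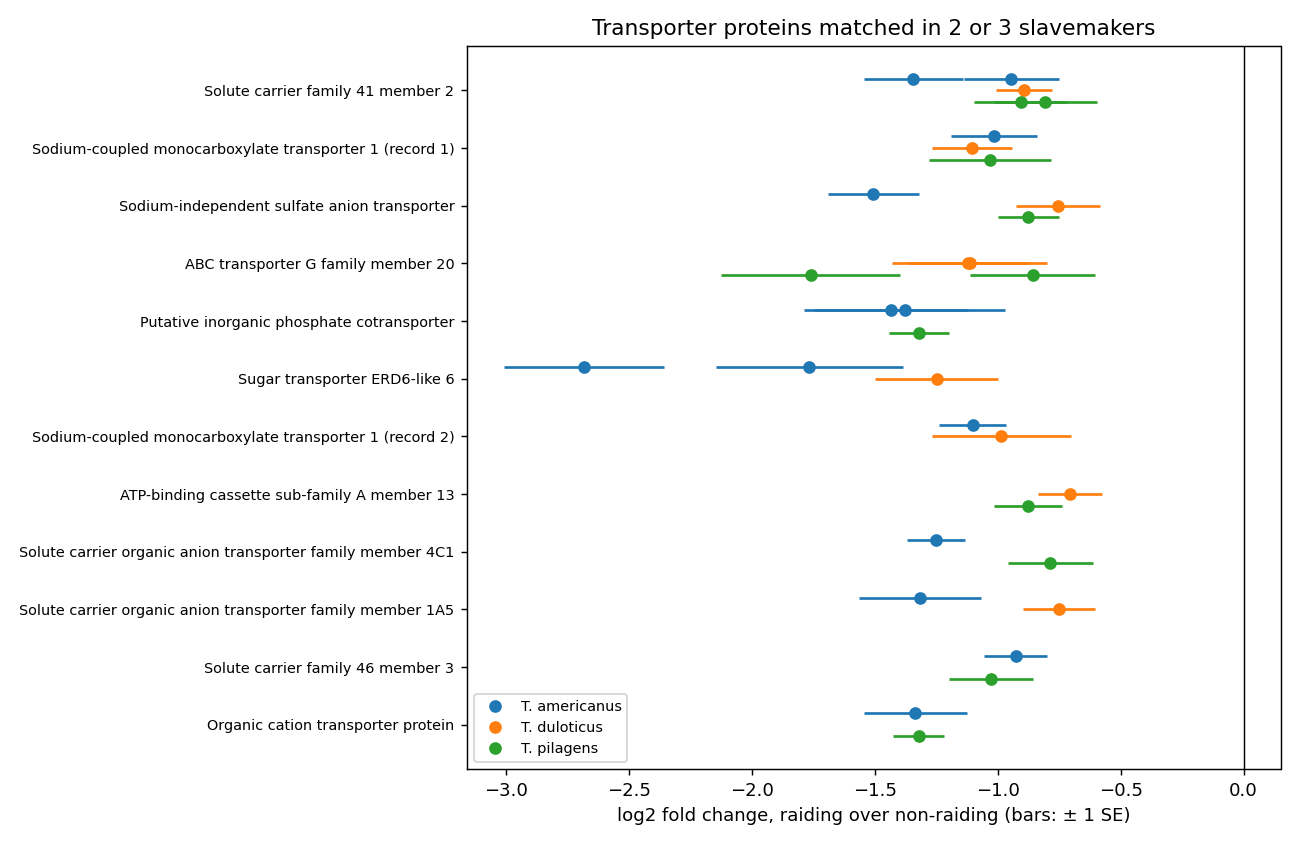
Log2 fold change of raiding over non-raiding workers for the 12 protein records matched in 2 or 3 slavemakers, 1 point per contig with bars of 1 SE either side. All points lie left of 0, between -2.68 and -0.71.

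Membrane transport proteins outside the rule (aquaporins, multidrug resistance-associated proteins, major facilitator domain proteins, a trehalose transporter and ion pumps) were lower in 17 of the 18 contigs fitted in slavemakers, 8 of them called lower, beside the same 552 of 1601 other named contigs and the percentages of all contigs given above. The multidrug resistance-associated proteins belong to the ABC family, but their titles do not hold the words of the rule. All these contigs outside the rule are likewise named only because the study called them. Their range ran from -2.44 for an aquaporin in T. americanus to 1.54 for a major facilitator domain protein in T. duloticus. In T. ambiguus the beta-1 subunit of the sodium/potassium-transporting ATPase was higher by 2.06, and in T. curvispinosus a putative amino acid permease had a log2 fold change of -4.06. Neither was called.

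Values of contigs with titles of tissue-specific proteins are given beside those of the transporters. Their calls stand beside 382 called lower and 153 higher of 828 other named contigs in T. pilagens (1.94% and 0.94% of all contigs), 84 and 17 of 358 in T. duloticus (0.284% and 0.0793%), and 86 and 82 in T. americanus (0.384% and 0.421%). In T. pilagens the summed CPM of 17 midgut contigs (digestive proteases and related enzymes) lay between 2992 and 4054 in non-raiding and between 1602 and 1686 in raiding libraries, with 8 of 10 tested called lower. The 4 nervous system contigs summed to 313 to 368 CPM against 180 to 204 CPM (3 called lower). The 11 muscle contigs summed to 1055 to 1384 against 1544 to 1644 CPM. Of 10 muscle contigs tested, 7 were higher (6 called) and 3 were lower. In T. duloticus 5 midgut contigs summed to 212 to 559 CPM against 120 to 179.9 CPM (4 lower, 2 of them called, and 1 higher). The 3 fat body contigs summed to 4132 to 14687 against 2595 to 5056 CPM, but only 1 of them was lower and 2 were higher. The 3 ovary contigs summed to 45.4 to 57.0 against 5.33 to 23.4 CPM (3 lower, 1 of them called). In T. americanus 7 midgut contigs summed to 107 to 213 CPM against 116 to 764 CPM. Of the 4 midgut contigs tested, 3 were lower (1 called) and only 1 was higher, and 3 of the 7 had no counts in the kept raiding libraries. The 2 muscle contigs of T. americanus summed to 302 to 382 CPM against 618 to 667 CPM (both called higher). In T. ambiguus 6 midgut contigs summed to 11.5 to 49.9 CPM in foragers and 134 to 1534 CPM in defending workers. The ovary contigs summed to 10.3 to 23.7 against 7.04 to 9.49 CPM in T. pilagens (1 contig, lower) and to 28.7 to 191 against 155 to 733 CPM in T. ambiguus (2 contigs, both higher). The remaining titles were those of fat body contigs in T. pilagens (166 to 640.4 against 688.3 to 1066 CPM) and T. ambiguus (62.9 to 2149 against 1942 to 12003 CPM). In T. duloticus they were those of nervous system (26.6 to 33.1 against 13.4 to 21.4 CPM) and muscle contigs (656 to 747 against 689.97 to 952 CPM, 2 lower and 1 higher). In T. ambiguus there was also 1 muscle contig (0.733 to 1.096 CPM against no counts). These contigs are named for the same reason as the transporters, and the part of tissue proportions in the transporter values was not tested.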

How the data were processed

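The authors trimmed the reads, mapped them to a de novo assembly of each species and counted them per contig, and the deposited counts are whole numbers without normalization, for 8 libraries per species. The submitters' notes list TopHat2 2.0.13, Bowtie, Trimmomatic and FastQC, and the study's methods give eXpress as the counting tool. Strand was not stated in the sources used here. Protein names are best-match titles in the authors' tables of called contigs. Their fold changes, p-values and other scores, 88 further per-sample columns in the later part of the expression tables and 42 columns of repeated counts were not used. Libraries were assigned to states by their sample labels, and in T. duloticus by library number.

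Each species was fitted alone on the libraries the study kept, in R 4.3.3 with edgeR 4.0.16 and limma 3.58.1. Low contigs were dropped by filterByExpr (minimum count 10), libraries were scaled by TMM, and glmQLFit and glmQLFTest were run over all contigs with Benjamini-Hochberg adjustment at 0.05. To obtain the SE, the size of the log2 fold change was divided by the root of the F statistic. CPM use library totals. Ratios to the non-raiding mean use TMM-scaled log2 CPM (prior count 2). The procedure was also run on simulated counts, with the same dispersion for every contig and changes larger than those of most transporter contigs. That run does not bear on calls for changes of the sizes given here. Alternatives were RLE size factors, no filter, the likelihood ratio test without the filter, DESeq2 1.42.0, the 8 libraries together, and fits that leave out 1 library. Tables and figures used Python 3.11.15, pandas 2.3.3, NumPy 2.4.6 and matplotlib 3.10.9. Kept libraries held 5.94 to 49.1-million counts and the transporter contigs at least 15 counts per library. SEs hold counting error and the spread between pools, and the labels do not say whether pools of a state came from separate colonies.

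The members, the classes of transporters and the lists of other membrane proteins and tissue titles were chosen with earlier results of these data known. Given in every library are each protein name found in at least 2 species (1 contig per name and species, that with the highest mean CPM), the 3 contigs per species and direction with the largest change among those with a mean of at least 1 CPM, 1 contig per name, and the contig with the highest mean CPM per species. These were 38 contigs, and a few others are named as the remainder of a class. The tissue titles were those of digestive enzymes without their inhibitors (midgut), sarcomere proteins (muscle), storage and transport proteins (fat body), synapse and channel proteins (nervous system) and vitellogenin receptor and germ line proteins (ovary).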

Additional observations from a re-analysis of the deposited data

Results flagged for a closer look

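Among 49 groups of 4 libraries examined for the contigs given in every library, 2 held a library far from the others, where chance gives about 1 in 20. The sodium-independent sulfate anion transporter of T. duloticus (contig c4888) had 25.2 CPM in raiding library DR_424 and 16.7 to 18.1 CPM in the other raiding libraries. Sodium-coupled monocarboxylate transporter 1 of T. pilagens (contig c10047) had 25.05 CPM in non-raiding library BR_681 and 19.8 to 20.2 CPM in the other non-raiding libraries.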

How the results depend on the processing

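With RLE size factors, no filter or 1 library left out, the median log2 fold change of the transporter contigs kept its sign. It moved by less than the spread between libraries in T. americanus, T. duloticus, T. pilagens and T. ambiguus. The same held with all 8 libraries in T. americanus and T. pilagens. In T. duloticus and T. ambiguus the study removed no library, so the fit with all 8 libraries is the main fit. The median was not recomputed with the likelihood ratio test or DESeq2. Under these and the other alternatives no log2 fold change of a contig given in every library turned its sign. The contrast chose these contigs, so nothing is read from that. The counts of calls by the quasi-likelihood test moved. In T. americanus 10 contigs were called, but 17 with all 8 libraries, 18 by the unfiltered likelihood ratio test, 20 by DESeq2, and 1 (without DR_438) to 7 (without BR_435) with 1 library left out. In T. duloticus 2 were called, but 10 by the likelihood ratio test, 12 by DESeq2, and 0 (without BR_419, BR_420, DR_421 or DR_423) to 3 (without BR_418) with 1 library left out. In T. pilagens 22 were called, and 4 (without DR_684) to 19 (without BR_680) with 1 library left out. In T. ambiguus 0 were called, but 2 by the likelihood ratio test and 2 by DESeq2, and 0 with any library left out. The cause of these moves was not tested. Leaving out a library also gives fewer residual degrees of freedom. ABCG4 contig c39990 of T. americanus and the contigs of vesicular acetylcholine transporter, phosphate cotransporter and organic cation transporter protein of T. pilagens were called with each library left out in turn. No alternatives were run for T. longispinosus and T. curvispinosus, which held no transporter contig. No paired analysis was possible because the library numbers are not shared between states and the labels do not say which pools came from the same colonies, although the study pooled the same colonies across states. The SEs and calls rest on an unpaired model.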
